A study of Homo sapiens with 12 samples.

Results

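RAS, RAF, MEK and ERK genes encode the core cascade that carries signals from the epidermal growth factor receptor (EGFR) to the nucleus, and 7 of them were described here: NRAS, HRAS, ARAF, BRAF, MAP2K1, MAP2K2 and MAPK3. They were taken as the rows of the gene count table that carry these symbols, 7 of 60591 genes in the table, and all 7 were among the 19108 genes tested. Other genes of these families were not analysed here. The libraries come from PC9 and H1650 cells, established lines of non-small cell lung cancer, labelled wild-type in genotype, that share the same activating EGFR deletion and that respond differently to EGFR inhibitors. Each line was sampled at the time of drugging with 0.1% DMSO (T0, 0 h), after 36 h with 10 μM erlotinib or after 36 h with 0.1 μM osimertinib, with 2 libraries in each of 6 groups and 12 in all. Erlotinib is a first-generation reversible inhibitor of EGFR and osimertinib a third-generation covalent one. The comparison asks how the RNA of the cascade's own components moves when the receptor above it is blocked, and whether it moves alike in both lines.

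When a receptor such as EGFR is active, adaptors and exchange factors load RAS proteins, small membrane-bound GTPases, with GTP. RAS then recruits RAF kinases, RAF phosphorylates the MEK kinases, and MEK phosphorylates the ERK kinases, which drive transcription of growth genes and of their own inhibitors. In EGFR-mutant lung cancer this cascade is one of the main routes by which the mutant receptor promotes proliferation. Its activity is set by phosphorylation and nucleotide binding, neither of which was measured here, and RNA levels are a separate quantity.

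Between 17961765 and 26346187 reads were counted on genes per library, with a median of 21581420.5, and the 7 genes had between 246 and 4308 reads in each library. Levels are given as normalized CPM, read counts scaled to the total of the library and corrected by TMM factors, and changes as log2 fold changes with their standard error (SE) from one quasi-likelihood model over all 12 libraries. A gene was called when its Benjamini-Hochberg adjusted p over the 19108 tested genes was under 0.05. Where libraries are said not to overlap, or to lie all above or below others, this describes their values only. The share of all tested genes that separate likewise was not counted. T0 cells were collected 36 h before the treated ones and no 36 h vehicle library was analysed here, so drug and culture time cannot be told apart. Within a line, erlotinib and osimertinib share their T0 libraries. In bulk RNA, fewer cells with a transcript and less of it per cell cannot be told apart. Both lines expressed all 7 epithelial markers checked (EPCAM was at 199 to 541 CPM), whereas 7 markers of leukocytes, endothelium and fibroblasts summed to between 1.25 and 4.77 CPM, with CD3E at 0 in 11 libraries and DCN in 10. Mitochondrial genes took 4.54 to 5.17% of reads in the PC9 T0 libraries and 6.32 to 7.20% in the treated ones, and 4.36 to 5.36% and 5.77 to 6.60% in H1650. The share was thus higher in all 8 treated libraries than in the 4 at T0, and its part in the changes against T0 was not tested.

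HRAS and MAPK3 are the 2 genes of the 7 whose response differed between PC9 and H1650 with both drugs, so their promoters are shown. Each had line differences of 1 sign, as 33.4% of all tested genes had. Each runs 5′ to 3′ on the strand of the gene from 250 bases before to 50 bases after the start site (RefSeq, GRCh38.p14). HRAS lies at chr11:535527-535826 and MAPK3 at chr16:30123171-30123470, both on the minus strand. Capitals mark every match, on either strand, to the GC box (GGGCGG), the CCAAT box (CCAAT), the E-box (CACGTG) and an ETS motif (CCGGAAG), which matched without overlapping each other.
HRAS: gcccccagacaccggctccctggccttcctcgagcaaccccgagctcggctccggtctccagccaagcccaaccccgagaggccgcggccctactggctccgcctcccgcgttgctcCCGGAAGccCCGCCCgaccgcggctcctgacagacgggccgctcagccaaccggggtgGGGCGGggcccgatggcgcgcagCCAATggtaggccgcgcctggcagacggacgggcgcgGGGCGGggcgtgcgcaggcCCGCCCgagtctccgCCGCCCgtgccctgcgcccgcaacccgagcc
MAPK3: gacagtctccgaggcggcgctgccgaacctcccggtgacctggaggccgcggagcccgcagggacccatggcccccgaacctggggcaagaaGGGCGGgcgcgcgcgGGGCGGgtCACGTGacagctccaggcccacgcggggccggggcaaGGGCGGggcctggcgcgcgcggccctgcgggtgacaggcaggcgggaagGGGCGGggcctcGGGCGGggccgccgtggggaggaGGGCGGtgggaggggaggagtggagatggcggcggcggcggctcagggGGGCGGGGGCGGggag
The MAPK3 window held 8 GC boxes and 1 E-box, and the HRAS window 5 GC boxes, 1 ETS motif and 1 CCAAT box. Their GC content was 80.7% and 78.0%, against a median of 58.7% over 35116 promoter windows. Of all these windows, 45.0% held a GC box, 34.6% a CCAAT box, 10.3% the ETS motif and 7.26% the E-box. These are shares with at least 1 match over windows of any GC content. How common such numbers of GC boxes are in windows of like GC content was not counted. NRAS, the other RAS gene, had 3 GC boxes, 1 E-box and 1 ETS motif, while neither ARAF nor BRAF had a GC box and each had 2 CCAAT boxes. MAP2K1 and MAP2K2 had 2 windows each. For MAP2K1 they held 3 GC boxes (GC content 72%) and 0 (53.7%), and for MAP2K2 2 (73.7%) and 0 (61.7%). A match is a description of the letters only.

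**Figure D1:**
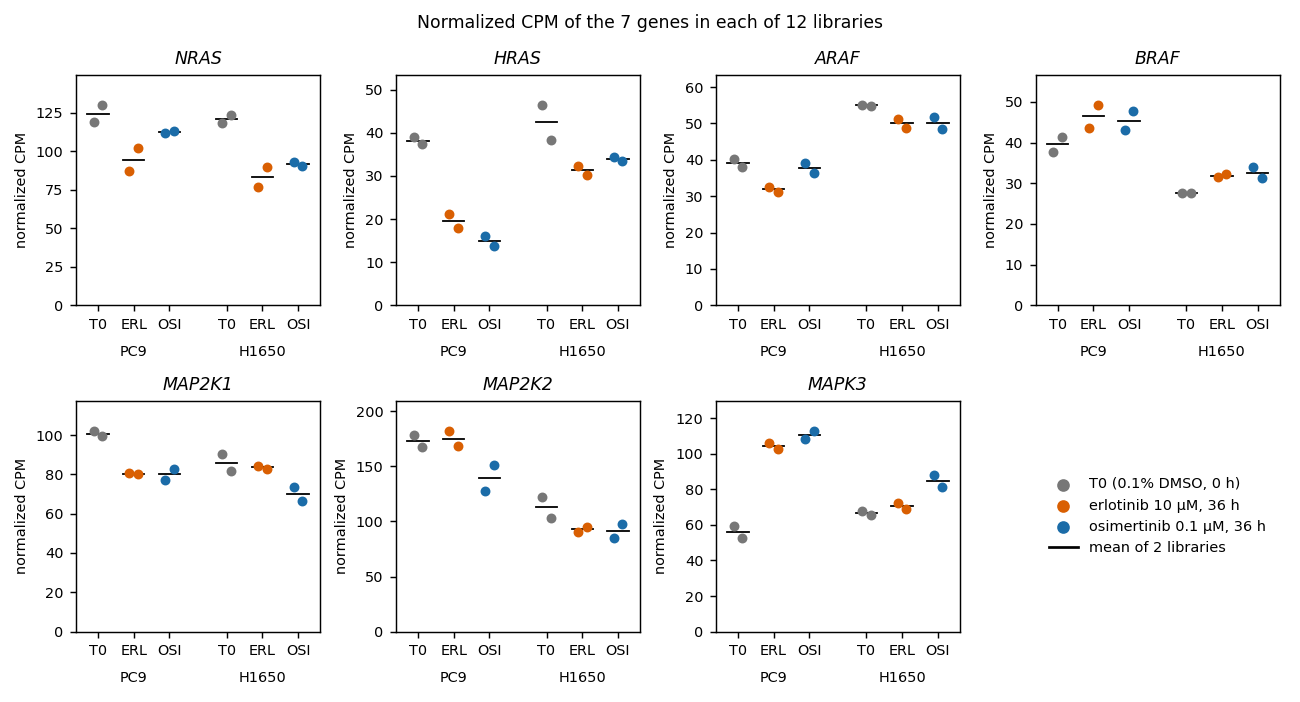
Normalized CPM (vertical axis, linear, from 0) of each of the 7 genes in the 2 libraries of each group (points, with their mean as a line), for PC9 and H1650 at T0, with erlotinib (ERL) and with osimertinib (OSI). HRAS was between 13.8 and 21.2 CPM in the 4 treated PC9 libraries and between 37.4 and 39.0 at T0, and MAPK3 was between 102.7 and 112.9 in treated PC9 libraries and between 52.9 and 59.3 at T0.

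In PC9 cells, 6 of the 7 genes were called after erlotinib, 4 of them lower and 2 higher, where 61.8% of all tested genes were called (29.1% lower and 32.7% higher). After osimertinib, 3 of the 7 were lower and 1 higher, where 61.4% of all genes were called (28.7% lower and 32.7% higher). In H1650 cells, 3 of the 7 were lower after erlotinib and 0 higher, where 36.5% of all genes were called (18.5% lower and 18% higher). After osimertinib 4 were lower and 1 higher in H1650, where 35.7% of all genes were called (17.9% lower and 17.8% higher). The median size of the 7 log2 fold changes was 0.33 and 0.31 in PC9 with erlotinib and osimertinib, against 0.69 and 0.71 over all genes. In H1650 it was 0.21 and 0.30, against 0.35 and 0.33. One direction in both drugs' calls was shared by 3 genes in PC9 (HRAS, MAP2K1 and MAPK3), as by 52.9% of all genes, and by 3 in H1650 (NRAS, HRAS and MAP2K2), as by 26.2%. HRAS alone was called in 1 direction in all 4 comparisons, as 17.6% of all genes were. It was called lower, as 9.16% were, and none of the 7 was called higher in all 4, as 8.47% were. None was called in opposite directions in the lines with erlotinib or with osimertinib, where 4.4% and 4.19% of all genes were.

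NRAS (chr1:114704469-114716894, minus strand; gene positions are those of GENCODE 29 on GRCh38) encodes the RAS GTPase named for its discovery in neuroblastoma. In PC9 it was at 118.8 and 130.4 CPM at T0, 87.3 and 101.9 after erlotinib, and 111.8 and 113.2 after osimertinib. H1650 had NRAS at 118.3 and 123.5 CPM at T0, 77.0 and 90.0 after erlotinib, and 93.3 and 90.6 after osimertinib. Every treated library was below both T0 libraries of its line. NRAS fell in H1650 with erlotinib by 0.53 on the log2 scale (SE 0.085, adjusted p = 1.26e-05) and with osimertinib by 0.40 (SE 0.085, adjusted p = 0.000467). In PC9 it fell by 0.40 with erlotinib (SE 0.085, adjusted p = 0.000193), but its difference of -0.15 ± 0.085 (SE) with osimertinib was not called (adjusted p = 0.134, 95% interval -0.32 to 0.026). Fitting the 6 PC9 libraries alone gave an adjusted p of 0.0281 for that difference. No line difference was called for NRAS, with values (H1650 minus PC9) of -0.14 ± 0.12 for erlotinib (adjusted p = 0.398) and -0.25 ± 0.12 for osimertinib (adjusted p = 0.100), and upper quartile scaling called the latter (-0.30, adjusted p = 0.0350).

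HRAS (chr11:532242-537287, minus strand), the RAS GTPase first found as the oncogene of Harvey sarcoma virus, showed the largest range of the 7 genes, 3.38-fold between its highest and lowest library. In PC9 it was at 39.0 and 37.4 CPM at T0, 21.2 and 17.8 after erlotinib, and 16.1 and 13.8 after osimertinib. H1650 had HRAS at 46.5 and 38.4 CPM at T0, 32.4 and 30.3 after erlotinib, and 34.3 and 33.4 after osimertinib. Treated libraries were thus below T0 in both lines, and the 4 treated PC9 libraries were the lowest of the 12. HRAS fell in PC9 to 0.510-fold of T0 with erlotinib (log2 fold change -0.97 ± 0.11, adjusted p = 1.33e-08) and to 0.393-fold with osimertinib (-1.35 ± 0.12, adjusted p = 4.95e-11). A change at least as large as the latter was seen in 26.7% of all tested genes. In H1650 it fell to 0.738-fold with erlotinib (-0.44 ± 0.11, adjusted p = 0.00168) and to 0.799-fold with osimertinib (-0.32 ± 0.11, adjusted p = 0.0173).

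The H1650 changes of HRAS leaned on the first T0 library, at 46.5 CPM. Without it, the log2 fold change was -0.30 with erlotinib (adjusted p = 0.0738) and -0.18 with osimertinib (adjusted p = 0.324). The osimertinib call was also lost without either osimertinib library (-0.34 without replicate 1 and -0.30 without replicate 2). Scaling by the library total alone lost it too (-0.25, adjusted p = 0.0734). The PC9 calls of HRAS held in every fit that left out 1 library, with log2 fold changes between -1.10 and -0.85 for erlotinib and between -1.47 and -1.25 for osimertinib over all alternatives. HRAS fell more in PC9 than in H1650, by 0.53 ± 0.15 with erlotinib (adjusted p = 0.00609) and by 1.02 ± 0.16 with osimertinib (adjusted p = 4.31e-06). The erlotinib difference was 0.40 without the second H1650 T0 library (adjusted p = 0.0575).

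ARAF (chrX:47561100-47571920, plus strand) and BRAF (chr7:140719327-140924928, minus strand) encode RAF kinases that RAS recruits to the membrane and that phosphorylate MEK. ARAF was at 40.3 and 38.1 CPM in PC9 at T0, 32.7 and 31.2 after erlotinib, and 39.0 and 36.3 after osimertinib. H1650 levels were 55.2 and 54.7 CPM at T0, 51.3 and 48.7 after erlotinib, and 51.9 and 48.5 after osimertinib. Among PC9 libraries the erlotinib pair stood below the others, and the osimertinib pair overlapped T0. ARAF fell in PC9 with erlotinib by 0.30 on the log2 scale (SE 0.088, adjusted p = 0.00469), a call lost without the first PC9 T0 library (-0.26, adjusted p = 0.0535). Its difference was -0.054 ± 0.088 in PC9 with osimertinib (adjusted p = 0.617), -0.14 ± 0.084 in H1650 with erlotinib (adjusted p = 0.218) and -0.13 ± 0.084 in H1650 with osimertinib (adjusted p = 0.239).

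BRAF was at 37.8 and 41.4 CPM in PC9 at T0, 43.6 and 49.3 after erlotinib, and 43.0 and 47.9 after osimertinib. In H1650 it was at 27.6 in both T0 libraries, at 31.5 and 32.3 CPM after erlotinib, and at 34.0 and 31.2 after osimertinib. All 8 treated libraries were above the T0 libraries of their line, but only the difference in PC9 with erlotinib was called. BRAF rose in PC9 with erlotinib by 0.23 ± 0.093 on the log2 scale (adjusted p = 0.0335). That call was lost without the first PC9 T0 library (0.16, adjusted p = 0.271), without the second PC9 erlotinib library (0.13, adjusted p = 0.329), without any 1 of 5 of the 6 H1650 libraries (adjusted p between 0.0564 and 0.060) and in DESeq2 (adjusted p = 0.135). The other 3 differences were 0.20 ± 0.094 in PC9 with osimertinib (adjusted p = 0.0738), 0.21 ± 0.098 in H1650 with erlotinib (adjusted p = 0.0994) and 0.24 ± 0.097 in H1650 with osimertinib (adjusted p = 0.0539). Some alternatives called them: a minimum of 10 counts in every library gave adjusted p of 0.0187, 0.0481 and 0.0253. The PC9 osimertinib difference was also called without the first PC9 osimertinib library (0.27, adjusted p = 0.0494), and the H1650 osimertinib difference without either PC9 erlotinib library (0.24, adjusted p = 0.0486 and 0.0487). No line difference of BRAF was found (-0.023 ± 0.14 with erlotinib and 0.045 ± 0.14 with osimertinib, adjusted p = 0.942 and 0.849). Exons of BRAF share 1239 of 23432 bases with NDUFB2, a gene of respiratory complex I on the opposite strand. NDUFB2 was at 56.3 to 60.8 CPM in PC9 at T0, 40.4 to 46.9 after erlotinib and 46.0 to 48.8 after osimertinib, lower where BRAF was higher. In H1650 it was at 57.7 to 58.8 CPM at T0, 58.6 to 59.3 after erlotinib and 61.8 to 65.8 after osimertinib, higher with osimertinib as BRAF was, and its part in the BRAF counts was not tested.

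MAP2K1 (chr15:66386817-66492312, plus strand) and MAP2K2 (chr19:4090321-4124129, minus strand) encode MEK1 and MEK2, the dual-specificity kinases that activate ERK. MAP2K1 was at 102.1 and 99.5 CPM in PC9 at T0, 80.7 and 80.1 after erlotinib, and 77.3 and 82.6 after osimertinib. H1650 levels were 90.2 and 81.8 CPM at T0, 84.2 and 82.9 after erlotinib, and 73.7 and 66.4 after osimertinib. Levels after both drugs were below T0 in PC9 without overlap, whereas in H1650 the erlotinib libraries lay within the T0 range. MAP2K1 fell in PC9 by 0.33 with erlotinib (SE 0.078, adjusted p = 0.000685) and by 0.33 with osimertinib (SE 0.079, adjusted p = 0.000552). In H1650 it fell by 0.30 with osimertinib (SE 0.079, adjusted p = 0.00384), a call lost without the first T0 library (-0.22, adjusted p = 0.0935) or the second osimertinib library (-0.22, adjusted p = 0.106). With erlotinib the H1650 difference was -0.042 ± 0.078 (adjusted p = 0.728, 95% interval -0.20 to 0.12). The erlotinib changes of the lines differed by 0.28 ± 0.11 (adjusted p = 0.0412), a difference not called in DESeq2 (adjusted p = 0.0665), with upper quartile scaling (adjusted p = 0.124) or without any 1 of the PC9 T0, PC9 erlotinib and H1650 erlotinib libraries or the second H1650 T0 library (0.22 to 0.31, adjusted p between 0.060 and 0.205). The osimertinib changes differed by 0.039 ± 0.11 (adjusted p = 0.839). Exons of MAP2K1 share 216 bases with SNAPC5 and 432 bases with AC116913.1 on the opposite strand, of 3759 exon bases, and the strand setting of the counting is not given in the sources used here. SNAPC5 was at 20.5 and 20.7 CPM in H1650 after erlotinib and between 16.3 and 16.9 at T0, and its part in the MAP2K1 counts was not tested.

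MAP2K2 was at 178.7 and 167.4 CPM in PC9 at T0, 182.2 and 168.2 after erlotinib, and 127.4 and 151.7 after osimertinib. The H1650 levels were 122.4 and 103.4 CPM at T0, 90.8 and 94.9 after erlotinib, and 85.2 and 97.5 after osimertinib. In PC9 the erlotinib libraries overlapped T0 and the osimertinib libraries lay below, while in H1650 all treated libraries lay below T0. MAP2K2 fell with osimertinib in PC9 by 0.31 (SE 0.090, adjusted p = 0.00373), with erlotinib in H1650 by 0.28 (SE 0.092, adjusted p = 0.0170) and with osimertinib in H1650 by 0.30 (SE 0.092, adjusted p = 0.00993). Each of these calls rested on single libraries. Scaling by the library total alone also lost both H1650 calls (-0.15, adjusted p = 0.198 with erlotinib, and -0.23, adjusted p = 0.0516 with osimertinib). Without the first PC9 osimertinib library the PC9 difference was -0.19 (adjusted p = 0.128). Without the first H1650 T0 library the H1650 differences were -0.16 (adjusted p = 0.295) and -0.18 (adjusted p = 0.235), and without the first treated library of each drug they were -0.25 (adjusted p = 0.109) and -0.21 (adjusted p = 0.176). In PC9 with erlotinib the difference was 0.018 ± 0.089 (adjusted p = 0.893, 95% interval -0.17 to 0.20), and its sign changed with the scaling. The line difference for erlotinib, -0.30 ± 0.13, was not called (adjusted p = 0.0644), but was without the second PC9 erlotinib library (-0.35, adjusted p = 0.0412), either PC9 osimertinib library (-0.30, adjusted p = 0.0491 and 0.0498) or the second H1650 T0 library (-0.41, adjusted p = 0.0153).

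MAPK3 (chr16:30114105-30123506, minus strand) encodes ERK1, one of the kinases at the end of the cascade. It was at 59.3 and 52.9 CPM in PC9 at T0, 105.9 and 102.7 after erlotinib, and 108.4 and 112.9 after osimertinib. In H1650 it was at 67.9 and 65.7 CPM at T0, 72.5 and 68.9 after erlotinib, and 88.4 and 81.1 after osimertinib. All treated libraries were above T0 of the same line, and the 4 treated PC9 libraries were the highest of the 12. MAPK3 rose in PC9 to 1.86-fold of T0 with erlotinib (log2 fold change 0.89 ± 0.080, adjusted p = 1.11e-10) and to 1.97-fold with osimertinib (0.98 ± 0.080, adjusted p = 1.74e-11). A change at least that large was seen in 40.4% and 37.9% of all tested genes. In H1650 it rose to 1.27-fold with osimertinib (0.34 ± 0.079, adjusted p = 0.00102), and its difference with erlotinib, 0.083 ± 0.080, was not called (adjusted p = 0.451, 95% interval -0.081 to 0.25). Scaling by the library total alone called the latter (0.21, adjusted p = 0.0348). The change in H1650 minus that in PC9 was -0.81 ± 0.11 with erlotinib (adjusted p = 1.02e-06) and -0.64 ± 0.11 with osimertinib (adjusted p = 3.33e-05). These 2 differences, and the 3 called rises, were called in every alternative and in every fit that left out 1 library.

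**Figure D2:**
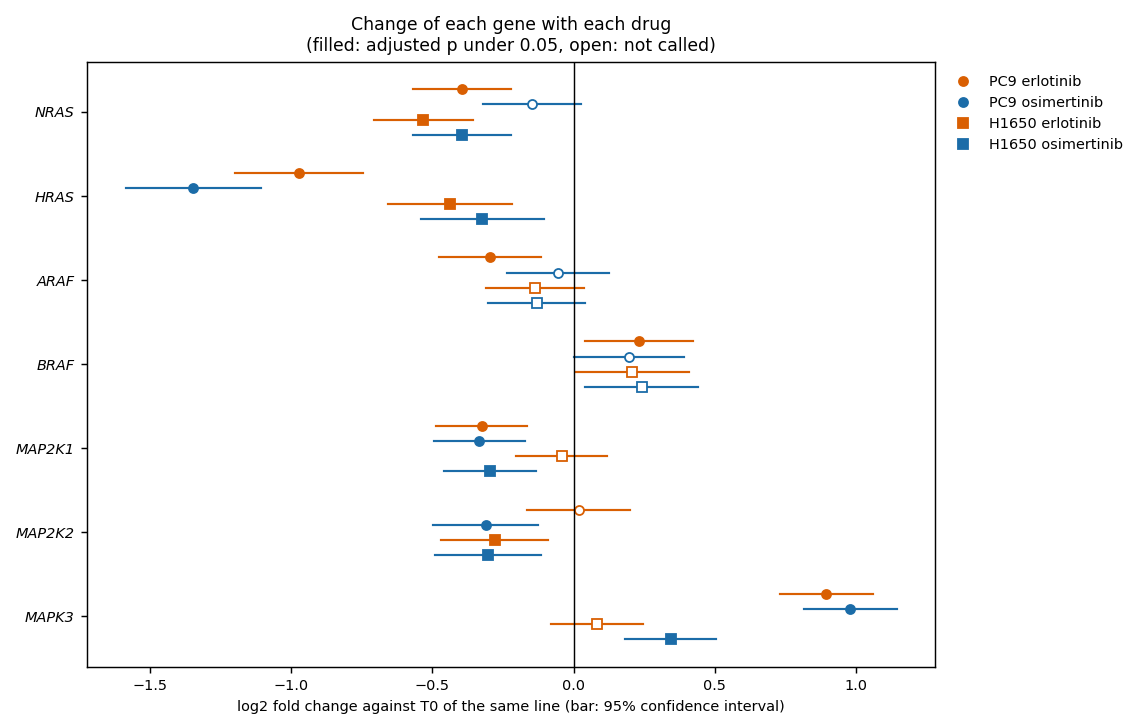
Log2 fold change of each gene against T0 of the same line (horizontal axis), with its 95% confidence interval as a bar, for PC9 (circles) and H1650 (squares) with erlotinib (orange) and osimertinib (blue), filled where the adjusted p was under 0.05. HRAS lay left of 0 in all 4 comparisons and farthest in PC9 (-0.97 and -1.35), and MAPK3 lay farthest right in PC9 (0.89 and 0.98).

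Of the 7 genes, 3 had a called line difference with erlotinib (HRAS, MAP2K1 and MAPK3), where 40.8% of all tested genes had one, and 2 with osimertinib (HRAS and MAPK3), where 41.9% did. With erlotinib 2 were more positive in H1650 and 1 more negative, against 21.1% and 19.8% of all genes, and with osimertinib 1 and 1, against 21.5% and 20.5%. HRAS and MAPK3 had line differences of 1 sign for erlotinib and osimertinib, as 33.4% of all genes had. The 2 genes moved in opposite directions: HRAS fell and MAPK3 rose, and both changes were larger in PC9.

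**Figure D3:**
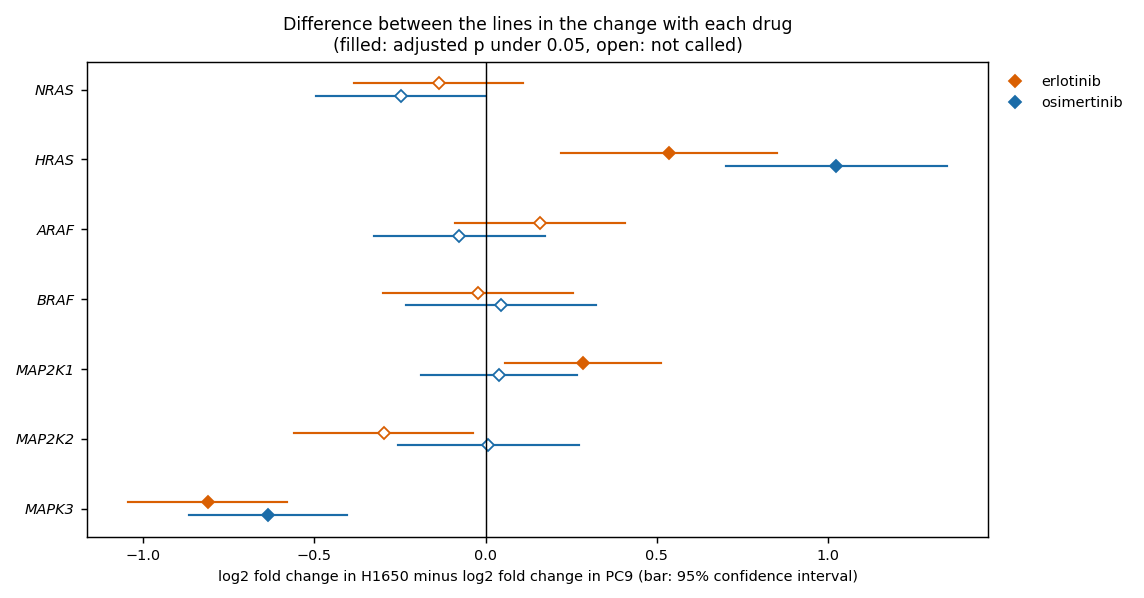
Log2 fold change in H1650 minus that in PC9 (horizontal axis) for each gene with erlotinib (orange) and osimertinib (blue), with 95% confidence intervals, filled where the adjusted p was under 0.05. HRAS was right of 0 (0.53 and 1.02, a smaller fall in H1650) and MAPK3 left of 0 (-0.81 and -0.64, a smaller rise in H1650).

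The drugs were given at different doses, 10 μM erlotinib and 0.1 μM osimertinib, so the values are set side by side without a comparison of the compounds. Between the groups as treated, 3 of the 7 genes were called in PC9 (1 higher with osimertinib and 2 lower), where 16.6% of all genes were called (10.1% higher and 6.41% lower). In H1650, 2 were called (1 higher and 1 lower), where 8.75% of all genes were (5.02% higher and 3.73% lower). In PC9, osimertinib-treated cells had more NRAS (0.25 ± 0.085, adjusted p = 0.0434), less HRAS (-0.37 ± 0.12, adjusted p = 0.0302) and less MAP2K2 (-0.33 ± 0.090, adjusted p = 0.0104) than erlotinib-treated cells. In H1650 they had less MAP2K1 (-0.25 ± 0.079, adjusted p = 0.0428) and more MAPK3 (0.26 ± 0.079, adjusted p = 0.0379). None of these 5 calls held in every fit that left out 1 library. NRAS lost its call without either PC9 T0 library, the first erlotinib library or either osimertinib library (0.14 to 0.26, adjusted p between 0.0503 and 0.437). HRAS lost it without the first erlotinib library (-0.25, adjusted p = 0.297) or the second osimertinib library (-0.27, adjusted p = 0.275), and MAP2K2 without the first library of erlotinib (-0.27, adjusted p = 0.0952) or of osimertinib (-0.21, adjusted p = 0.236). In H1650, MAP2K1 lost its call without either PC9 T0 library, the first H1650 T0 library or any treated H1650 library (-0.33 to -0.18, adjusted p between 0.0525 and 0.375). MAPK3 lost it without either erlotinib library (0.29 and 0.23, adjusted p = 0.0854 and 0.219) or the first osimertinib library (0.20, adjusted p = 0.358).

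Before treatment the lines already differed. At T0, 5 of the 7 genes were called between H1650 and PC9, 2 higher and 3 lower in H1650, where 69.6% of all genes were called (35.8% higher and 33.8% lower). Compared with PC9, H1650 had more ARAF (log2 difference 0.49 ± 0.085, adjusted p = 1.20e-05) and more MAPK3 (0.25 ± 0.081, adjusted p = 0.00738), and less BRAF (-0.52 ± 0.096, adjusted p = 2.60e-05), MAP2K1 (-0.23 ± 0.078, adjusted p = 0.0109) and MAP2K2 (-0.62 ± 0.090, adjusted p = 8.14e-07). The RAS genes were not called, with -0.043 ± 0.084 for NRAS (adjusted p = 0.662) and 0.15 ± 0.11 for HRAS (adjusted p = 0.210). The MAPK3 call was lost without the second PC9 T0 library (0.17, adjusted p = 0.157) or the first H1650 T0 library (0.21, adjusted p = 0.0781). That of MAP2K1 was lost without the first PC9 T0 library (-0.21, adjusted p = 0.0677) or the second H1650 T0 library (-0.16, adjusted p = 0.164), and HRAS was called without the second H1650 T0 library (0.28, adjusted p = 0.0457).

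Under treatment the order of the lines turned for MAPK3 and widened for HRAS. MAPK3 was lower in H1650 than in PC9 with erlotinib (-0.56 ± 0.079, adjusted p = 3.99e-07) and with osimertinib (-0.38 ± 0.078, adjusted p = 8.58e-05). HRAS was higher in H1650 by 0.68 ± 0.11 with erlotinib (adjusted p = 4.53e-06) and by 1.17 ± 0.12 with osimertinib (adjusted p = 6.52e-10). ARAF stayed higher in H1650 (0.65 ± 0.086 and 0.41 ± 0.086, adjusted p = 1.70e-07 and 0.000125) and BRAF lower (-0.54 ± 0.095 and -0.48 ± 0.095, adjusted p = 1.06e-05 and 6.81e-05). MAP2K2 was lower in H1650 too (-0.92 ± 0.091 and -0.61 ± 0.092, adjusted p = 7.30e-10 and 1.17e-06). In all, 5 of the 7 genes were called between the lines under erlotinib (2 higher in H1650 and 3 lower), where 72.1% of all genes were (36.7% and 35.4%). Under osimertinib all 7 were called (2 higher and 5 lower), where 71.6% of all genes were (36.6% higher and 35% lower). With osimertinib NRAS was lower in H1650 (-0.29 ± 0.085, adjusted p = 0.00346), and so was MAP2K1 (-0.19 ± 0.080, adjusted p = 0.0345), whose call was lost without the second PC9 (-0.14, adjusted p = 0.212) or the second H1650 osimertinib library (-0.12, adjusted p = 0.30). With erlotinib their differences were -0.18 ± 0.086 (adjusted p = 0.0616) and 0.055 ± 0.079 (adjusted p = 0.542), and NRAS was called without the first PC9 (-0.29, adjusted p = 0.010) or the second H1650 erlotinib library (-0.31, adjusted p = 0.00994).

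Levels can be compared between genes only per length, here as normalized CPM per kilobase of the longest transcript in GENCODE 29. In PC9 at T0 the level was 59.1 ± 2.7 CPM per kilobase (SD, n = 2) for MAP2K2, 31.0 ± 0.92 for HRAS, 29.6 ± 0.54 for MAP2K1, 28.0 ± 1.8 for NRAS, 21.9 ± 1.8 for MAPK3, 15.6 ± 0.63 for ARAF and 4.14 ± 0.27 for BRAF. The libraries of MAP2K1 and NRAS overlapped in that order and those of the other neighbours did not. In H1650 at T0 it was 38.6 ± 4.6 for MAP2K2, 34.4 ± 4.7 for HRAS, 27.2 ± 0.84 for NRAS, 26 ± 0.62 for MAPK3, 25.2 ± 1.7 for MAP2K1, 21.9 ± 0.13 for ARAF and 2.88 for BRAF, and the libraries of MAP2K2 and HRAS overlapped, as did those of MAPK3 and MAP2K1. After osimertinib in PC9, MAPK3 was second at 43.1 and HRAS sixth at 12.1. The MAPK3 libraries (42.2 to 44.0) overlapped those of MAP2K2 (43.5 to 51.8) there. Over all exons of the gene MAPK3 was above MAP2K2 in that group (30.2 against 26.6). The order depends on the length used: over all exons of the gene, HRAS was at 20.6 CPM per kilobase in PC9 at T0, below MAP2K1 at 26.8 and NRAS at 28.0. The longest MAP2K2 transcript, of 2926 bases, retains an intron, and over the longest coding transcript of 1734 bases MAP2K2 was at 99.8. BRAF was the lowest of the 7 in every group with each length.

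Ratios between genes of a family within a library do not depend on library scaling. The per-length ratio of HRAS to NRAS was 1.18 and 1.04 in PC9 at T0, 0.876 and 0.632 after erlotinib, and 0.521 and 0.440 after osimertinib. In H1650 it was 1.42 and 1.12 at T0, 1.52 and 1.21 after erlotinib, and 1.33 in both osimertinib libraries. HRAS thus lost ground to NRAS in PC9, with no overlap between the groups, while the H1650 groups overlapped. The ratio of ARAF to BRAF was 4.07 and 3.52 in PC9 at T0, 2.87 and 2.42 after erlotinib, and 3.47 and 2.90 after osimertinib, and in H1650 it was 7.66 and 7.58 at T0, 6.24 and 5.77 after erlotinib, and 5.83 and 5.94 after osimertinib. Each treated library was below both T0 libraries of its line. The ratio of MAP2K2 to MAP2K1 was 2.04 and 1.96 in PC9 at T0, 2.63 and 2.45 after erlotinib, and 1.92 and 2.14 after osimertinib. In H1650 it was 1.58 and 1.47 at T0, 1.26 and 1.33 after erlotinib, and 1.35 and 1.71 after osimertinib, so that erlotinib libraries lay above T0 in PC9 and below T0 in H1650. With 2 libraries against 2, no exact permutation test can reach the threshold, and none was run on the ratios.

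**Figure D4:**
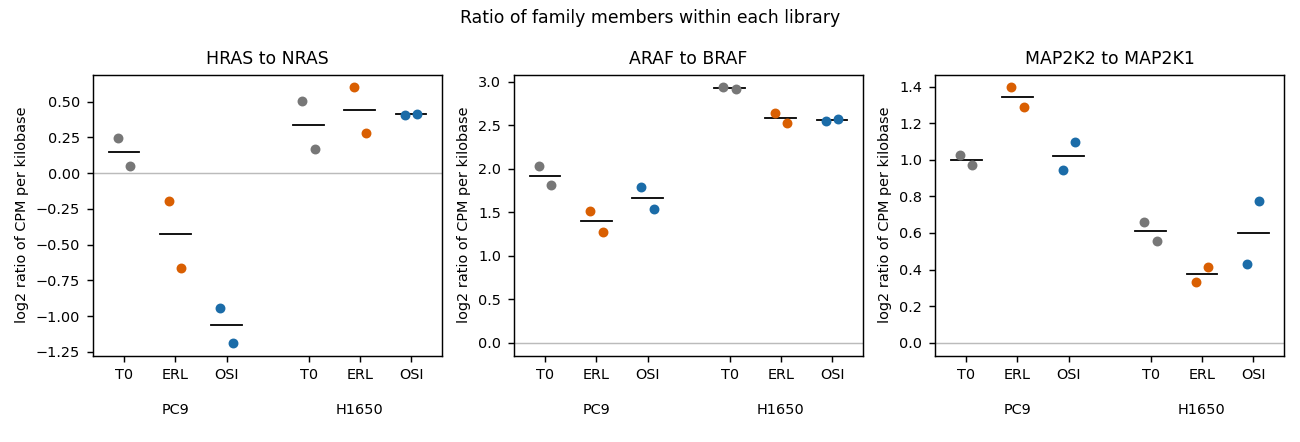
Log2 ratio of CPM per kilobase of the longest transcript between 2 genes of a family (vertical axis) in each library (points, with the group mean as a line). Groups are T0 (grey), erlotinib (orange) and osimertinib (blue). A value of 0 means equal levels for this length only. The HRAS to NRAS ratio fell from between 0.050 and 0.24 at T0 to between -1.19 and -0.94 with osimertinib in PC9, and all ARAF to BRAF ratios of H1650 were above those of PC9.

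The wider pathway was described with 8 lists holding 100 genes, of which 98 are in the table and 96 were tested; SOS1 and SOS2 were not analysed here, and RASAL3 and ERAS were below the filter. Targets and feedback inhibitors of ERK had the largest median change of the 8 lists in each drug comparison. Of 15 such genes, 14 were lower and 1 higher in PC9 with each drug, with medians of -3.22 and -4.04 on the log2 scale. In H1650, 8 were higher and 4 lower with erlotinib (median 0.57), and 1 was higher and 8 lower with osimertinib (median -0.42). Over all genes the medians were 0.074 (PC9 erlotinib), 0.064 (PC9 osimertinib), 0.0051 (H1650 erlotinib) and 0 (H1650 osimertinib). Of all genes, 32.7% were called higher and 29.1% lower in PC9 with erlotinib, and 32.7% and 28.7% with osimertinib. In H1650 the shares were 18% and 18.5% with erlotinib, and 17.8% and 17.9% with osimertinib. FOSL1, a subunit of AP-1, fell in PC9 from 298 ± 2.7 CPM (SD, n = 2) to 14.2 ± 1.5 with erlotinib and 16.8 ± 2.7 with osimertinib, and in H1650 from 25.6 ± 0.31 to 3.80 ± 0.17 and 2.96 ± 0.34 (all adjusted p at most 1.98e-15). ETV5, an ETS transcription factor induced by ERK, fell in PC9 from 62.8 ± 1.0 CPM to 0.939 ± 0.45 and 0.381 ± 0.016, but rose in H1650 with erlotinib from 5.89 ± 0.94 to 19.4 ± 0.28 (adjusted p = 3.12e-10), with a difference of -0.29 with osimertinib (adjusted p = 0.196). ETV4, a close relative of ETV5, fell in PC9 with both drugs (log2 fold changes -5.03 and -5.61) and in H1650 with osimertinib (-0.85, adjusted p = 2.22e-21, 1.36e-21 and 0.000979). In H1650 with erlotinib its difference of 0.18 was not called (edgeR, adjusted p = 0.446). Its H1650 levels were low, at 4.34 CPM at T0, 4.91 after erlotinib and 2.39 after osimertinib.

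Upstream of RAS, 10 exchange factors and adaptors were tested, and 3 were higher and 4 lower in PC9 with erlotinib, 5 and 4 with osimertinib, and 2 and 3, then 2 and 2, in H1650 (erlotinib, then osimertinib). In the same order, their median log2 fold changes were 0.037, 0.11, -0.070 and 0.056. Over all genes, 32.7% were called higher and 28.7 to 29.1% lower in PC9, and 17.8 to 18% and 17.9 to 18.5% in H1650. GAB1, a docking adaptor, rose in all 4 comparisons (log2 fold changes 1.21, 1.65, 0.23 and 0.42 for PC9 erlotinib, PC9 osimertinib, H1650 erlotinib and H1650 osimertinib), and PTPN11, the phosphatase SHP2, fell in all 4 (-0.97, -1.13, -0.54 and -0.73). RASGEF1A, an exchange factor, rose in all 4 (0.61, 0.35, 1.27 and 1.48). Its H1650 levels were low, at 1.88 ± 0.58 CPM (SD, n = 2) at T0, 4.46 ± 0.61 after erlotinib and 5.17 ± 0.38 after osimertinib. In PC9 at T0 it was at 15.2 ± 0.69. Of 9 RAS GTPase-activating proteins, which switch RAS off, 3 were higher and 1 lower in PC9 with erlotinib, 4 and 3 with osimertinib, and 3 and 2 in H1650 with each drug, with medians of -0.16, -0.21, 0.11 and 0.25. RASA1 fell in all 4 comparisons (-0.97, -1.06, -0.35 and -0.35). DAB2IP rose in PC9 (0.24 and 0.56) and was not called in H1650 (0.034 and 0.16).

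Of 11 relatives in the RAS subfamily, 4 were higher and 3 lower in PC9 with each drug, and 1 and 4, then 2 and 6, in H1650, with medians of -0.020, 0.054, -0.21 and -0.29. Over all genes, 32.7% were called higher and 28.7 to 29.1% lower in PC9, and 17.8 to 18% and 17.9 to 18.5% in H1650. RRAS and MRAS moved in opposite directions in PC9 and H1650. RRAS was at 17.1 and 18.2 CPM in PC9 at T0 and rose to between 41.3 and 51.7 with the drugs, whereas in H1650 it fell from 62.7 and 71.9 to between 41.9 and 58.5. MRAS rose in PC9 from 1.28 ± 0.76 CPM to 9.99 ± 1.3 and 11.2 ± 0.99 and fell in H1650 from 55.1 ± 0.97 to 39.0 ± 0.062 and 36.4 ± 0.34. The line differences were -1.93 and -1.87 for RRAS and -3.47 and -3.73 for MRAS (adjusted p at most 3.19e-11). RALB, a target of the RAS arm that runs through Ral exchange factors, fell in PC9 (-0.99 and -1.02) and was not called in H1650 (-0.21 and -0.12). For membrane processing, which anchors RAS by a lipid tail, 2 of 9 genes were higher and 4 lower in PC9 with erlotinib, 3 and 3 with osimertinib, and 0 and 2, then 1 and 2, in H1650, with medians of -0.21, -0.17, -0.059 and -0.029. ICMT, which methylates the processed tail, fell in PC9 (-1.39 and -1.58) and in H1650 with osimertinib (-0.37). LYPLA1, a thioesterase acting on palmitoylated proteins, fell in all 4 comparisons (-0.77, -0.99, -0.23 and -0.51), and FNTA, a subunit of farnesyltransferase, rose in PC9 (0.56 and 0.52) and in H1650 with osimertinib (0.46).

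Of 17 scaffolds and regulators of RAF and MEK, 4 were higher and 9 lower in PC9 with erlotinib, 3 and 9 with osimertinib, and 4 and 5, then 2 and 5, in H1650, with medians of -0.23, -0.22, -0.10 and -0.14. Over all genes, 32.7% were called higher and 28.7 to 29.1% lower in PC9, and 17.8 to 18% and 17.9 to 18.5% in H1650. The 14-3-3 genes YWHAZ and YWHAE, whose proteins bind phosphorylated RAF, fell in all 4 comparisons (-0.80, -0.61, -0.61 and -0.52, and -0.83, -0.74, -0.49 and -0.34), and so did PAQR3, a Golgi protein that binds RAF (-1.0, -0.79, -0.40 and -0.52). Among 8 kinases activated by ERK, 4 were higher and 2 lower in PC9 with each drug, and 3 and 1, then 4 and 1, in H1650, with medians of 0.32, 0.50, 0.11 and 0.26. RPS6KA4 fell in all 4 comparisons (-1.96, -2.15, -1.33 and -1.15), and MKNK2 (1.11, 0.54, 1.09 and 0.81) and RPS6KA2 (1.24, 0.51, 2.70 and 0.72) rose. RPS6KA2 was low in H1650, at 1.77 to 2.01 CPM at T0, 12.2 to 12.3 after erlotinib and 2.24 to 3.92 after osimertinib. Of 17 other MAP2K and MAPK kinases, 5 were higher and 8 lower in PC9 with erlotinib, 4 and 8 with osimertinib, and 5 and 2, then 3 and 4, in H1650, with medians of -0.11, -0.088, 0.17 and 0.066. MAP2K3, an activator of p38, fell in all 4 comparisons (-1.67, -1.09, -0.48 and -0.47), as did MAPK9, which encodes JNK2 (-0.68, -1.05, -0.27 and -0.59). MAPK15, an atypical ERK, rose in PC9 (1.05 and 1.21) and was not called in H1650 (-0.035 and -0.024).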

How the data were processed

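Total RNA of PC9 and H1650 cells was extracted with a column kit and sequenced commercially, and the labels give polyA RNA as the molecule. The authors processed reads with the DolphinNext pipeline and deposited whole-number featureCounts counts per gene, without normalization, and the labels name GRCh38 and DESeq2. The aligner, annotation and strand setting are not given in the sources used here. The study describes 2 biological replicates. The p-values judge differences against the spread between such libraries, pooled over the 6 groups and combined with that of other genes. The members, lists and tests were chosen with earlier results of these data known.

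The filter of edgeR 4.0.16 (in R 4.3.3) kept 19108 of 60591 genes, TMM factors lay between 0.941 and 1.08, and a quasi-likelihood model with 6 group terms (6 residual and 20.7 prior degrees of freedom) was fitted to all 12 libraries, with Benjamini-Hochberg adjustment over the genes tested. Library totals were 17961765 to 26346187. Replicates differed by more than sampling noise (chi-square per degree of freedom 4.03 to 7.16). Alternatives were DESeq2 1.42.0, RLE, upper quartile and total-only scaling, no filter, a minimum of 10 counts, an adjusted p threshold of 0.01, only the libraries of the line (or, between lines, of the treatments) compared, a replicate block, other lengths and leaving out each library. The length of the longest coding transcript was added after seeing the data. The procedure was also run on simulated counts with few changed genes and no effect shared by same-numbered libraries, unlike these data. That run does not bear on the scaling or the error model for these data.

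Named genes were all 7 members, the 3 genes of each list with the largest mean change over the 4 drug comparisons among those called in at least 2 with a mean of at least 10 CPM, and the 2 genes most correlated with each member. One gene that this rule names is not reported here. Positions and lengths come from GENCODE 29, whose summed exons differ from the deposited lengths for 4 of the 7 genes (MAP2K1 3759 against 2971 bases). Promoters of all 7 genes were found in RefSeq (with 2 entries each for MAP2K1 and MAP2K2). Also searched were AP-1 (TGACTCA or TGAGTCA, in 4.95% of promoters), CRE (TGACGTCA, 1.85%), TATAAA (11.5%) and E2F (TTTCGCGC or TTTGGCGC, 1.15%), with no match in a member.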

Additional observations from a re-analysis of the deposited data

Results flagged for a closer look

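The change with a drug differed between the lines by a test of the difference itself (H1650 minus PC9, log2 scale, edgeR) for 3 genes with erlotinib and 2 with osimertinib, where 40.8% and 41.9% of all tested genes had such a difference. HRAS differed by 0.53 with erlotinib (adjusted p = 0.00609) and by 1.02 with osimertinib (adjusted p = 4.31e-06), with a fall in every treated group that was larger in PC9. MAPK3 differed by -0.81 with erlotinib (adjusted p = 1.02e-06) and by -0.64 with osimertinib (adjusted p = 3.33e-05), with a larger rise in PC9. MAP2K1 differed by 0.28 with erlotinib (adjusted p = 0.0412), lower in both erlotinib-treated PC9 libraries and within the T0 range in H1650, and this call was lost in DESeq2 (adjusted p = 0.0665). No group had enough libraries for a search for single outlying samples.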

How the results depend on the processing

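The changes of NRAS, HRAS, MAP2K1 and MAPK3 in PC9 with erlotinib, of HRAS, MAP2K1 and MAPK3 in PC9 with osimertinib, of NRAS in H1650 with both drugs and of MAPK3 in H1650 with osimertinib were called in every alternative, as were the line differences of MAPK3 with both drugs and of HRAS with osimertinib. Where a library was left out, its group had 1 library, assumed to vary like the others. Leaving out 1 library also changed how many of all genes were called between the drugs, as given below. Counts of the 7 genes called in fits of this kind are therefore not given.

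Between the drugs, no member was called at an adjusted p under 0.01 in either line (0 in PC9 and 0 in H1650), and 1 was called in H1650 with RLE scaling, total-only scaling, DESeq2 or no filter. Same-numbered libraries deviated together between groups of the same line (r 0.123 to 0.304, over 0.1 in 6 of 6 pairs of groups) and less regularly across lines (0.000266 to 0.380, over 0.1 in 5 of 9). The labels tie a number to no shared culture or day, so the libraries were not taken as paired. With the replicate block, 6, 6, 3 and 6 members were called in the 4 drug comparisons (PC9 erlotinib, PC9 osimertinib, H1650 erlotinib, H1650 osimertinib), where 63.7%, 63.5%, 40.9% and 40.2% of all genes were. It called 4 and 3 line differences (44.3% and 45.5% of all genes), 4 and 2 between the drugs (21.8% in PC9 and 14% in H1650) and 5, 6 and 7 between the lines (71.1%, 73.6% and 73.1%). The calls it added, with edgeR's adjusted p, were NRAS (0.0488) and BRAF (0.0479) in PC9 with osimertinib, BRAF in H1650 with osimertinib (0.0297), MAP2K2 for erlotinib (0.0216) and NRAS for osimertinib (0.0233) between line responses, ARAF between the drugs in PC9 (0.0288) and NRAS between lines under erlotinib (0.0144). It removed none.

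In total, 23 values of 16 uncalled results changed sign under the other settings, none of them called, and the cause was not tested. With total-only scaling the values were 0.084 for MAP2K1, 0.091 for MAPK15 (both H1650 erlotinib), 0.048 for MAPK15 (H1650 osimertinib), 0.013 and 0.018 for the erlotinib line differences of BRAF and MKNK2, -0.049 and -0.021 for ARAF and BRAF between the drugs in H1650, and 0.012 for NRAS between lines at T0. With upper quartile scaling they were 0.018 for ARAF (PC9 osimertinib), -0.011, -0.017 and -0.046 for the osimertinib line differences of BRAF, MAP2K1 and MAP2K2, and -0.016 for MAP2K1 between lines under erlotinib. Without a filter they were -0.044 for MAP2K2 (PC9 erlotinib), 0.015 and 0.020 for the erlotinib line differences of BRAF and MKNK2, and 0.017 for the osimertinib line difference of FNTA. MAP2K2 in PC9 with erlotinib was -0.0035 with RLE, -0.0042 with DESeq2 and -0.024 in a fit of the 6 PC9 libraries alone, MAP2K1 between the drugs in PC9 0.0014 with RLE and 0.0011 with DESeq2, and the osimertinib line difference of MAP2K2 -0.020 with the 10-count minimum.

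Leaving out 1 library turned 44 values of 19 uncalled results. Against T0 they ranged from -0.042 to 0.072 for MAP2K2 (PC9 erlotinib), from -0.11 to 0.026, -0.075 to 0.14 and -0.12 to 0.043 for MAP2K1, DAB2IP and MAPK15 (H1650 erlotinib) and from -0.11 to 0.058 for MAPK15 (H1650 osimertinib). Line differences ranged from -0.11 to 0.071 for BRAF and -0.069 to 0.034 for MKNK2 with erlotinib, and from -0.031 to 0.13 for BRAF, -0.028 to 0.13 for MAP2K1, -0.11 to 0.15 for MAP2K2, -0.12 to 0.023 for FNTA and -0.24 to 0.56 for RPS6KA2 with osimertinib. Between the drugs they ranged from -0.12 to 0.059 for BRAF and -0.058 to 0.041 for MAP2K1 in PC9, and from -0.041 to 0.057 for ARAF, -0.026 to 0.097 for BRAF and -0.12 to 0.074 for MAP2K2 in H1650. Between the lines at T0 they ranged from -0.013 to 0.28 for HRAS and from -0.11 to 0.024 for NRAS.

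Total-only scaling moved the median of all genes by 0.125 in H1650 with erlotinib and the share of its calls that were higher from 49.4% to 66.5%. That share moved from 49.8% to 59.8% in H1650 with osimertinib, and between the drugs from 61.3% to 48.5% in PC9 and from 57.4% to 39.2% in H1650. Over all genes, 3163 were called between the drugs in PC9, 1930 at an adjusted p under 0.01 and 2108 without the second osimertinib library. In H1650, 1672 were called, 2670 with the replicate block, 912 at an adjusted p under 0.01, and 1093, 1045 and 782 without the first erlotinib, the second erlotinib and the first osimertinib library.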

Other observations

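Across the 12 libraries, the Pearson correlation of log2 normalized CPM was -0.95 between ARAF and BRAF, -0.87 between HRAS and MAPK3, -0.84 between ARAF and MAP2K2 and -0.81 between HRAS and BRAF, and 0.72 between HRAS and ARAF and between BRAF and MAP2K2. The 12 points are 6 groups of 2 libraries in 2 lines, so these values describe the group pattern and carry no p.

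Among 10293 genes with a mean of at least 10 CPM, those most like each member over the 12 libraries were GDF11 and CD109 for NRAS (r = 0.965 and 0.961), SDHB and PRRC2A for HRAS (0.983 and 0.981), CHST14 and CPA4 for ARAF (0.987 for both), WDR70 and TRUB2 for BRAF (0.993 and 0.981), TOR3A and GUF1 for MAP2K1 (0.951 and 0.935), MYC and RPLP2 for MAP2K2 (0.983 and 0.980) and ZFAND5 and TSC22D4 for MAPK3 (0.987 and 0.984). MYC encodes a transcription factor of growth, RPLP2 a ribosomal protein and SDHB a subunit of succinate dehydrogenase.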
